A study of Mus musculus with 7 samples.

Results

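The sarcomeric myosin heavy chains are the motor proteins of the thick filament of striated muscle, and 8 of their genes were followed here: Myh3, Myh8, Myh2, Myh1, Myh4, Myh7, Myh6 and Myh7b. They were chosen by gene symbol in the platform annotation of the array, among 20738 genes tested (entries of the symbol column, each read by its brightest probe set). Each of the 8 genes had 1 probe set, and 0 of these probe sets were shared with another gene. All 8 matched the RefSeq gene table by gene identifier and symbol.

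Single-colour arrays were made from total RNA of the extensor digitorum longus, a fast muscle of the lower leg, of 4 wild type mice and 3 mice labelled AMPKα1α2 double knockout. AMPK, the AMP-activated protein kinase, senses a fall in cellular energy, and α1 and α2 (genes Prkaa1 and Prkaa2) are its catalytic subunits. Both groups shared a mixed strain background of C57/Bl6 and SV129, and each array held RNA of 1 mouse, as the design text counts them. The age and sex of the mice, any exercise before the muscles were taken, the exons deleted and whether the deletion was limited to muscle are unknown here. The title of the series concerns muscle fatty acid use in exercise, and the comparison described here asks whether the myosin genes shifted between fibre types. All values are log2 expression, so 1 unit is a doubling of signal, and values per array are given in the order of the replicate numbers.

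A muscle fibre is typed by the myosin heavy chain it makes. Before and around birth fibres use the embryonic (Myh3) and perinatal (Myh8) forms. Adult fibres replace these with slow myosin (Myh7) or with a fast form, IIa (Myh2), IIx (Myh1) or IIb (Myh4), in order of rising speed of contraction and falling oxidative capacity. The mouse extensor digitorum longus is made up mostly of IIb and IIx fibres with few slow ones, and embryonic myosin returns in fibres that regenerate.

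The arrays had medians between 7.5 and 7.58, and their number, 4 against 3, limited the precision of every difference. Skeletal fibre markers were bright in both groups: the mean over 6 of them lay between 13.69 and 13.76 in wild type and between 13.72 and 13.74 in knockout muscle. Prkaa1 read 9.54, 9.48, 9.61 and 9.53 in wild type replicates 1 to 4 and 9.09, 9.19 and 8.8 in knockout replicates 1 to 3. Prkaa2 read 12.31, 12.03, 12.28 and 12.28 against 12.04, 11.95 and 12.04. Prkaa1 was lower in every knockout array and Prkaa2 was not, but neither passed the test (limma adjusted p = 0.11 and 0.39), and since the deleted exons are not known here, the genotypes were taken from the labels. In limma with Benjamini-Hochberg adjustment over all probe sets tested, 5 of 20738 genes, or 0.0241%, had an adjusted p under 0.05, 0.0193% higher and 0.00482% lower. In bulk muscle, fewer cells of a type and less RNA per cell cannot be told apart.

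Of the 8 myosin heavy chain genes, 1 passed this test, the embryonic Myh3, which was higher in knockout muscle, beside 0.0193% of all genes higher and 0.0241% in either direction. At an adjusted p under 0.10 it was still 1 member, beside 0.477% of all genes. The perinatal Myh8 was the other member whose genotypes did not overlap, and its difference did not pass. The adult fast myosins Myh2, Myh1 and Myh4 had differences of 0.22, 0.09 and 0.01, none of which passed. Slow Myh7 differed by 0.71 on average, with the 3 knockout arrays far apart from each other. All 8 knockout means lay at or above the wild type mean, although the signs of Myh4 (0.01) and Myh7b (0.00) turned when each array was centred on its median. The median difference over the 8 genes was 0.15, beside -0.005 over all genes tested.

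**Figure D1:**
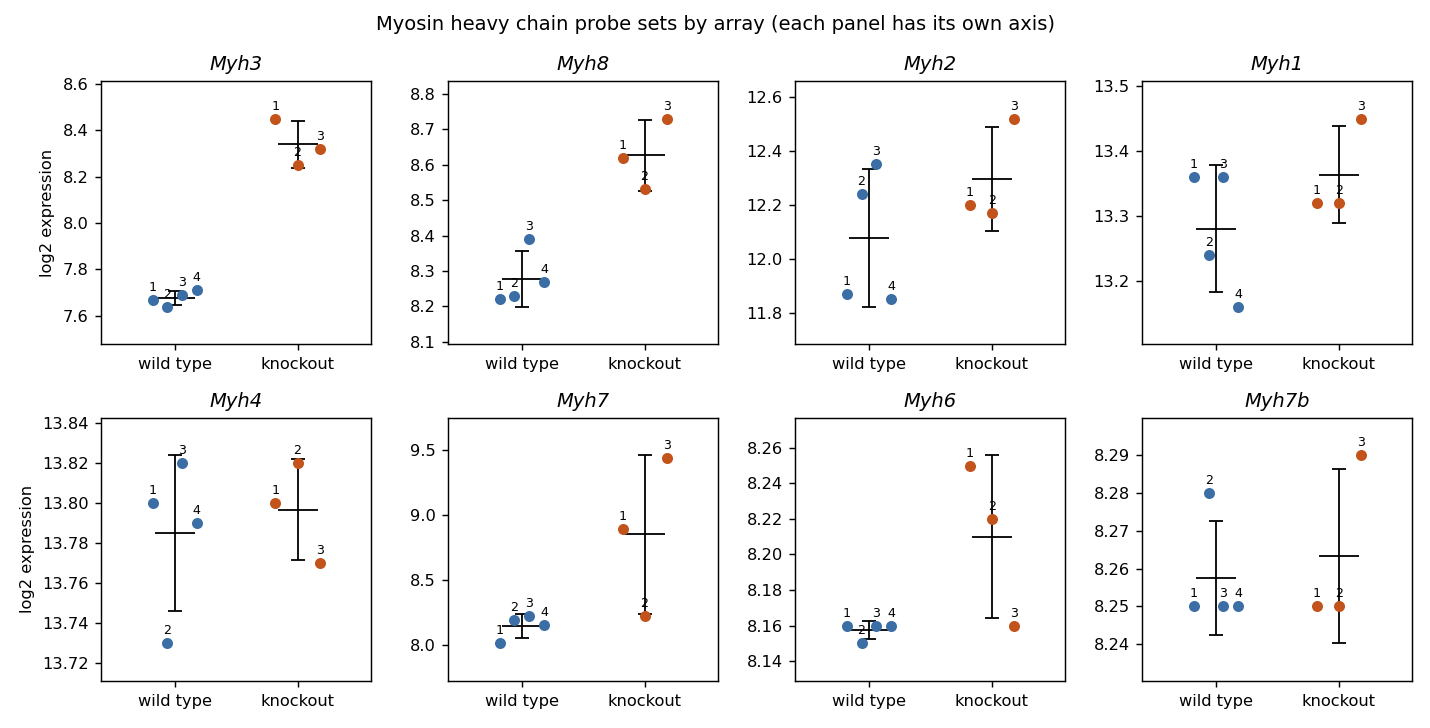
Log2 expression of the 8 myosin heavy chain probe sets on each array, with wild type in blue and knockout in orange, replicate numbers above the points, and a black line and whiskers for the mean and SD (n = 4 and n = 3). Each panel has its own axis, so levels are not to be compared between genes; the 3 knockout points of Myh3 (8.25 to 8.45) lie above all 4 wild type points (7.64 to 7.71), while those of Myh4 (13.77 to 13.82) lie among the wild type points.

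Myh3, the embryonic myosin heavy chain (probe set 10377018), read 7.67, 7.64, 7.69 and 7.71 in wild type replicates 1 to 4 and 8.45, 8.25 and 8.32 in knockout replicates 1 to 3. Every knockout array stood above every wild type array, with 0.54 units between the highest wild type and the lowest knockout value. The means were 7.68 ± 0.03 (SD, n = 4) and 8.34 ± 0.1 (SD, n = 3). Myh3 rose by 0.66 ± 0.05 (SE), which is 1.58-fold with a 95% interval from 1.46 to 1.72 (limma adjusted p = 0.025). Its probe set was brighter than 59.4% of the probe sets on the array in mean signal. The wild type mean of 7.68 lay near the array medians of 7.5 to 7.58. Whether low signal compressed the difference was not tested. The size of the rise hardly moved when 1 array was left out (0.61 to 0.71), but the adjusted p then lay above 0.05 in 6 of 7 fits, between 0.064 without knockout replicate 2 and 0.2 without wild type replicate 1. Without knockout replicate 1 it was 0.036.

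Myh8, the perinatal myosin heavy chain (probe set 10377148), read 8.22, 8.23, 8.39 and 8.27 on the wild type arrays and 8.62, 8.53 and 8.73 on the knockout arrays. The knockout arrays again stood above all wild type arrays, by a gap of 0.14. The Myh8 probe set was brighter than 68.3% of the probe sets in mean signal. The means were 8.28 ± 0.08 (SD, n = 4) and 8.63 ± 0.1 (SD, n = 3), a difference of 0.35 ± 0.06 (SE) that did not pass (limma adjusted p = 0.11, 95% interval 0.2 to 0.5). Over all genes, 3.31% had knockout arrays above all wild type arrays, against these 2 of the 8 myosin genes, and 0 of the 8 lay below, beside 5.25%. Knockout replicate 1 was the highest of its group for Myh3 and replicate 3 for Myh8, while replicate 2 was the lowest for both. Over the 7 arrays, which share the genotype difference, Myh3 and Myh8 had a Pearson's r of 0.93.

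Myh3 and Myh8 lie on either side of the adult fast genes in a cluster of myosin genes on chromosome 11, which runs in the order Myh3, the long non-coding RNA gene 2310065F04Rik (linc-Myh), Myh2, Myh1, Myh4, Myh8 and the extraocular Myh13 in RefSeq's GRCm38.p6 table. The stretches from 250 bases before to 50 bases after the annotated start are shown for these developmental genes and for the adult fast genes at the opposite ends of the IIa to IIb order, because Myh3 passed the test and its neighbours in the cluster did not. Sequences are from RefSeq (GRCm38.p6), plus strand, 5′ to 3′. Capitals mark the 14-base run TTCTAATTATATCC and the letters TATAAA, on the strand shown.
Myh3, chr11:67078050-67078349: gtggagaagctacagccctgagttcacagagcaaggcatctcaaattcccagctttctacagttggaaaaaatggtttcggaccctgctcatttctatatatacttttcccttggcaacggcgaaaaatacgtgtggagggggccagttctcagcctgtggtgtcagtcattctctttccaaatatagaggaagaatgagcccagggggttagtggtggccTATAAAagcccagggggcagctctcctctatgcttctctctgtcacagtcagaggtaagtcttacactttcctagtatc
Myh8, chr11:67276874-67277173: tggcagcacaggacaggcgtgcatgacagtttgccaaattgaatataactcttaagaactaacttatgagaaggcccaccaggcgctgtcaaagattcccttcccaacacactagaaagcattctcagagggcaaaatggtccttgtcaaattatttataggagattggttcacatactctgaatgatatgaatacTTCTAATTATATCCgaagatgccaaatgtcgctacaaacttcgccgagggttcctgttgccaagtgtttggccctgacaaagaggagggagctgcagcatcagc
Myh2, chr11:67170777-67171076: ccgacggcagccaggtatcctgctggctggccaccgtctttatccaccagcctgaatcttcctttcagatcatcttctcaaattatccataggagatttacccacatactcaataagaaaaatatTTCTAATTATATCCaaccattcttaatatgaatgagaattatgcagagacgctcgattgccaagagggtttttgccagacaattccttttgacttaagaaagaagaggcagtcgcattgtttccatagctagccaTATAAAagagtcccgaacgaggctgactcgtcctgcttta
Myh4, chr11:67237562-67237861: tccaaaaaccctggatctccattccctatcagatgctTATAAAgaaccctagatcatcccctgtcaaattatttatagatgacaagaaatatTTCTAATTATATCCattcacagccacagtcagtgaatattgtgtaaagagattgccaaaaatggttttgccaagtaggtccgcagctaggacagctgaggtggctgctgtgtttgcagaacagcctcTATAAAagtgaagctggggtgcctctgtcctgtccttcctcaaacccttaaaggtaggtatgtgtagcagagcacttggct

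The run TTCTAATTATATCC was found as the longest stretch common to the windows of Myh2, Myh1, Myh4 and Myh8. It begins 125, 160, 158 and 54 bases before their annotated starts, and no window of Myh3, Myh7, Myh6 or Myh7b holds it. These distances depend on the annotation, since in the Myh2 window the TATAAA lies after the annotated start. Searched on both strands, the run occurs in 4 of the 32851 promoter windows of the table (0.0122%), and it was picked because those 4 share it. TATAAA (both strands) occurs in 13.6% of all windows and in those of Myh3, Myh8, Myh2, Myh1, Myh4 and Myh6. The E-box CANNTG, the core bound by MyoD-type factors, occurs in 72.3% of windows, with 1 in Myh3, 2 in Myh8, 3 in Myh4 and 0 in Myh2 and Myh1. The MEF2 element, searched by its usual consensus on both strands, occurs in 3.19% of windows and in those of Myh1, Myh4 and Myh8, while the CArG box occurs in 1.63% and among these genes in Myh4. In all 3 windows with a MEF2 match it overlaps a TATAAA, and 0 of the other motifs overlap the shared run. Matches are descriptions of these letters and not of binding, and their part in the array values was not tested.

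The adult fast myosins were measured near the top of the array's signal range, where probe sets can saturate. Whether saturation hid a change was not tested. Their coding sequences are close to each other, the probe sequences were not used here, and how far each probe set reads a neighbouring myosin was not tested. Nor was it tested for the other members, Myh3, Myh8, Myh7, Myh6 and Myh7b.

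Myh2, the IIa myosin of oxidative fast fibres (probe set 10377055, brighter than 98.0% of probe sets), read 11.87, 12.24, 12.35 and 11.85 on the wild type arrays and 12.2, 12.17 and 12.52 on the knockout arrays. The genotypes overlapped, since wild type replicates 2 and 3 lay at the level of the knockout arrays and replicates 1 and 4 below all of them. The difference was 0.22 ± 0.15 (SE), with a 95% interval from -0.14 to 0.59 (limma adjusted p = 0.68). It was 0.11 without knockout replicate 3.

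Myh1, the IIx myosin (probe set 10377087, brighter than 99.5%), read 13.36, 13.24, 13.36 and 13.16 on the wild type arrays and 13.32, 13.32 and 13.45 on the knockout arrays. Knockout replicate 3 was the highest array and the others fell within the wild type range. The difference was 0.09 ± 0.06 (SE), with a 95% interval from -0.06 to 0.24 (limma adjusted p = 0.7), and it was 0.042 without knockout replicate 3, 0.046 without wild type replicate 4 and 0.052 after a further quantile normalization.

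Myh4, the IIb myosin of the fastest fibres (probe set 10377117, brighter than 99.7%), read 13.8, 13.73, 13.82 and 13.79 on the wild type arrays and 13.8, 13.82 and 13.77 on the knockout arrays. The groups lay on top of each other, at 13.78 ± 0.04 (SD, n = 4) and 13.8 ± 0.03 (SD, n = 3). The 95% interval of the difference, -0.07 to 0.09, corresponds to a signal ratio between 0.956 and 1.06, so a change of Myh4 signal beyond these bounds was not seen (limma adjusted p = 0.94). This interval describes the signal of a probe set near the top of the range.

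**Figure D2:**
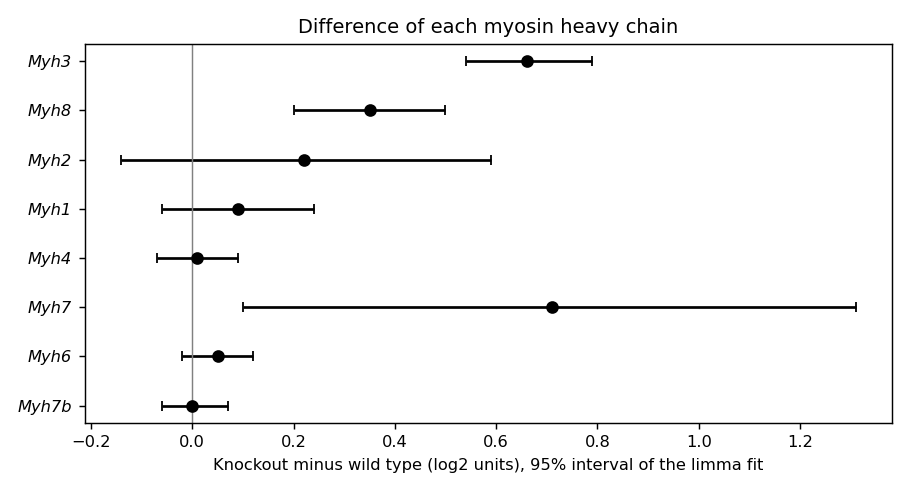
Knockout minus wild type difference of each myosin heavy chain on the log2 scale, with points for the limma estimate and bars for its 95% interval. The interval of Myh3 (0.54 to 0.79) is narrow and far from 0, that of Myh7 (0.1 to 1.31) is the widest, and those of Myh2, Myh1, Myh4, Myh6 and Myh7b hold 0.

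Shifts among the fibre types were asked within each array, as the difference between the values of a pair of probe sets. Such a difference is no ratio of transcript amounts, because probe sets differ in response, and only its change between genotypes was read. Myh2 minus Myh4 was -1.93, -1.49, -1.47 and -1.94 on the wild type arrays and -1.6, -1.65 and -1.25 on the knockout arrays. The knockout mean was higher by 0.21 ± 0.19 (SE from the pooled spread), with an overlap set by wild type replicates 2 and 3 (exact permutation test, two-sided p = 0.343, n = 4 and n = 3). Myh2 minus Myh1 was -1.49, -1, -1.01 and -1.31 against -1.12, -1.15 and -0.93, a change of 0.14 ± 0.15 (exact permutation p = 0.457).

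Myh1 minus Myh4 was -0.44, -0.49, -0.46 and -0.63 on the wild type arrays and -0.48, -0.5 and -0.31 on the knockout arrays. It changed by 0.08 ± 0.07 (exact permutation p = 0.514). Over the 4 pairs computed, the Benjamini-Hochberg adjusted exact p was 0.514 for each of these 3 pairs and 0.456 for Myh7 minus Myh4. With 3 arrays against 4 the smallest two-sided exact p is 0.0571, so no shift between fast types could reach 0.05 by this test. Leaving out knockout replicate 3 reduced the change of Myh2 minus Myh4 to 0.087, of Myh1 minus Myh4 to 0.018 and of Myh2 minus Myh1 to 0.069. Without wild type replicate 1 Myh2 minus Myh1 was 0.04, and without wild type replicate 4 Myh1 minus Myh4 was 0.035 and Myh2 minus Myh4 0.13.

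**Figure D3:**
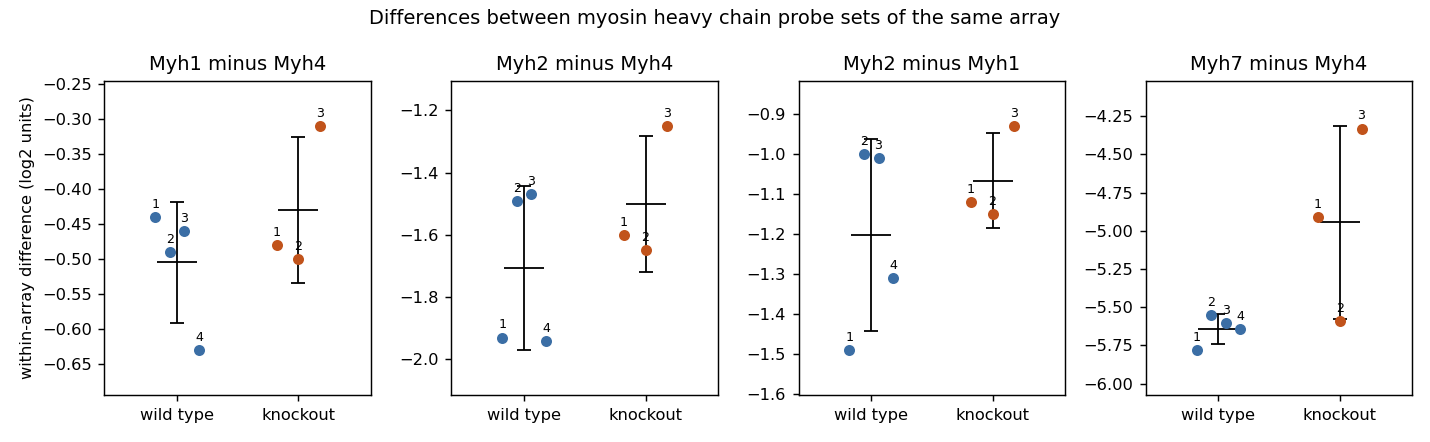
Difference between the log2 values of 2 myosin heavy chain probe sets on the same array, by genotype, with replicate numbers and the mean and SD (n = 4 and n = 3). In the 3 pairs of fast myosins the genotypes overlap, and in Myh7 minus Myh4 knockout replicate 2 (-5.59) lies among the wild type arrays while replicates 1 and 3 (-4.91 and -4.33) lie above them.

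Myh7, the slow myosin of type I fibres and of the heart ventricle (probe set 10419934), read 8.01, 8.19, 8.22 and 8.15 on the wild type arrays and 8.89, 8.22 and 9.44 on the knockout arrays. Knockout replicates 1 and 3 stood above every wild type array, and knockout replicate 2 had the same value as wild type replicate 3. The Myh7 probe set was brighter than 68.7% of the probe sets in mean signal. The means were 8.14 ± 0.09 (SD, n = 4) and 8.85 ± 0.61 (SD, n = 3). The difference of 0.71 ± 0.25 (SE) had an unadjusted p of 0.028 and did not pass (limma adjusted p = 0.41). It was 0.41 without knockout replicate 3, 0.43 under array weights, which gave that array the lowest weight (0.288), and 1.02 without knockout replicate 2. Myh7 minus Myh4 was -5.78, -5.55, -5.6 and -5.64 on the wild type arrays and -4.91, -5.59 and -4.33 on the knockout arrays, a change of 0.7 ± 0.31 (exact permutation p = 0.114). In this pair knockout replicate 2 was again inside the wild type range, and the change was 0.39 without knockout replicate 3.

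Unadjusted p values under 0.05 were found for 3 of the 8 members, Myh3, Myh8 and Myh7, beside 10.6% of all genes. The other cardiac and slow-type forms differed by 0.05 or less. Myh6, the α myosin of the heart (probe set 10419900), read 8.16, 8.15, 8.16 and 8.16 on the wild type arrays and 8.25, 8.22 and 8.16 on the knockout arrays, and its difference was 0.05 ± 0.03 (limma adjusted p = 0.65). It was 0.027 without knockout replicate 1, 0.077 without knockout replicate 3 and 0.033 under median centring. Knockout replicates 1 and 2 lay above the wild type arrays and replicate 3 among them, whereas replicate 3 was the highest for Myh7. Myh7b, an ancient slow-type myosin, read 8.25 in 5 arrays, 8.28 in wild type replicate 2 and 8.29 in knockout replicate 3 (probe set 10477673). With 3 distinct values in 7 arrays its difference of 0.00 ± 0.03 carries little information.

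Myh6, Myh7 and Myh7b each hold a microRNA gene within their span, Mir208a, Mir208b and Mir499, which form the family of myosin microRNAs. Their mature strands are shown because they share most of the seed, the bases 2 to 8 that pair with targets and that are given in capitals (RefSeq, GRCm38.p6, 5′ to 3′).
mmu-miR-208a-3p: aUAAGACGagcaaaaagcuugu
mmu-miR-208b-3p: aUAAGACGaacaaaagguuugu
mmu-miR-499-5p: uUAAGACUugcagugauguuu

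The seeds of miR-208a-3p and miR-208b-3p are the same, and that of miR-499-5p shares its first 6 bases with them. The array's probe set for Mir208a read 5.48, 5.48, 5.48 and 5.55 on the wild type arrays and 5.43, 5.45 and 5.48 on the knockout arrays, a difference of -0.05 ± 0.03 (limma adjusted p = 0.68) that was -0.03 without wild type replicate 4 and -0.032 without knockout replicate 1. That for Mir499, named after its values were seen, differed by 0.03 ± 0.05. Both were dim on all arrays, and the whole-transcript labelling used is not made for mature microRNAs. Of the 11 non-coding RNAs of the myosin loci and muscle microRNAs listed, 8 were measured. Of these, 0 passed with limma, 0 had an unadjusted p under 0.05, 4 lay above and 4 below wild type, and the median difference was -0.01. The second member by p was Mir1a-2, at -0.27 ± 0.21, which became -0.035 when knockout replicate 2 was left out and -0.52 when replicate 1 was. Mir208b and linc-Myh were not analysed here.

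Genes that make up the slow fibre programme were read beside Myh7. Of 13 contractile and calcium-handling genes of slow fibres, 0 passed over all genes in limma. At an unadjusted p under 0.05, 8 were higher and 1 lower, beside 3.97% higher and 6.6% lower among all genes, and the median difference was 0.39. Tnni1, slow troponin I, read 8.13, 8.35, 8.24 and 8.12 on the wild type arrays and 9.21, 8.81 and 9.61 on the knockout arrays, a difference of 1 ± 0.17 (limma adjusted p = 0.11). Atp2a2, the slow and cardiac calcium pump of the sarcoplasmic reticulum, read 9.87, 9.91, 10.06 and 9.82 against 10.35, 10.67 and 11.02, a difference of 0.76 ± 0.15 (limma adjusted p = 0.14). In both genes all 3 knockout arrays lay above all 4 wild type arrays, as they did in 7 of the 13, against 3.31% of all genes. In 1 of the 13, Pln, they lay below (-0.25 ± 0.09), against 5.25% of all genes. Myl2 was the other gene with a lower knockout mean (-0.24 ± 0.28), and its genotypes overlapped. Pln and Myl2 were named after their values were seen.

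The order of the knockout arrays in several slow genes was that of Myh7. Knockout replicate 2 was the lowest of the knockout arrays in 7 of the 13 genes, replicate 1 in 5 and replicate 3 in 1. Tnnc1, the slow and cardiac troponin C, named after its values were seen, read 9.22, 8.62 and 9.44 in knockout replicates 1 to 3 and 8.44 to 8.52 in wild type. Csrp3, a stretch-responsive LIM protein of the Z-disc and also named after its values were seen, had another order, at 11.55, 11.88 and 11.8 in knockout and 9.4, 11.19, 10.57 and 9.83 in wild type replicates. Its wild type arrays split as those of Myh2 did, with replicates 2 and 3 above replicates 1 and 4. The mean over the 13 slow genes, Csrp3 included, was 9.11 in wild type replicates 2 and 3, 8.73 in replicate 1 and 8.83 in replicate 4. It was 9.43, 9.27 and 9.59 in knockout replicates 1 to 3. The median over the 13 of the value minus the wild type mean split less. It was -0.08, 0.08, 0.1 and -0.08 in wild type replicates 1 to 4 and 0.44, 0.24 and 0.64 in knockout replicates 1 to 3.

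**Figure D4:**
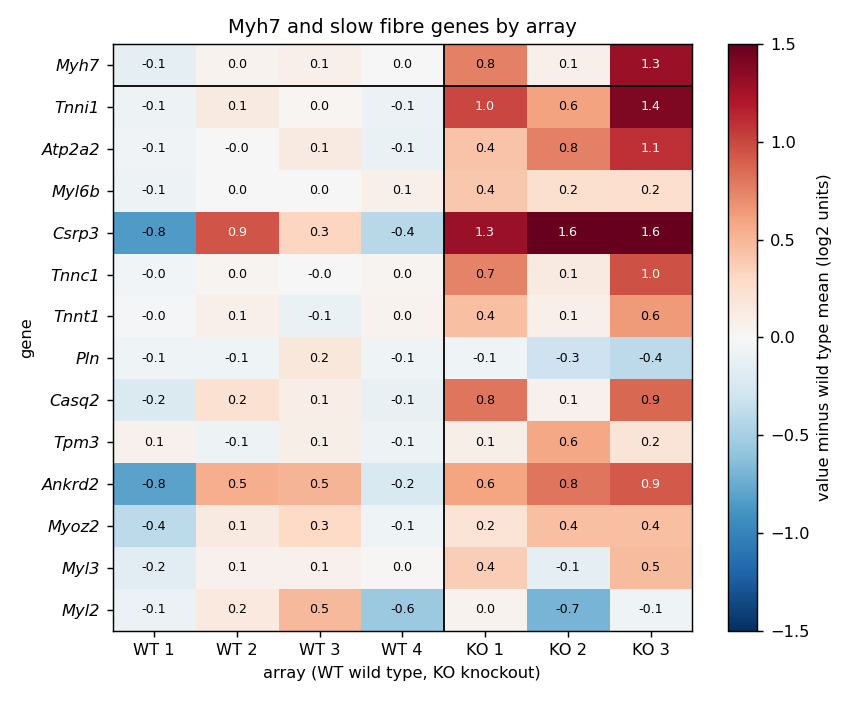
Value minus wild type mean, in log2 units, of Myh7 (top row) and 13 slow fibre genes (ordered by p) on each of the 4 wild type (WT) and 3 knockout (KO) arrays, with red above and blue below the wild type mean. Myh7 is high in knockout replicates 1 and 3 and not in replicate 2, Tnnc1 follows this order, and Tnni1 and Atp2a2 are high in all 3 knockout arrays.

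Fast fibre genes were read beside the fast myosins. Of 14 fast contractile and calcium-handling genes, 0 passed in limma, 1 was higher and 1 lower with an unadjusted p under 0.05 (3.97% and 6.6% over all genes), and the median difference was 0.03 in a range from -0.25 to 0.14. In 5 of the 14 the knockout arrays lay above all wild type arrays, by differences within that range, beside 3.31% of all genes. Mylk2, the kinase of the regulatory myosin light chain, read 12.6, 12.26, 12.63 and 12.62 on the wild type arrays and 12.28, 12.27 and 12.29 on the knockout arrays, a difference of -0.25 ± 0.09 (limma adjusted p = 0.42). Wild type replicate 2 was as low as the knockout arrays. Casq1, the calcium store protein of fast fibres, differed by 0.08 ± 0.03 (limma adjusted p = 0.44). The mean over the 14 probe sets lay between 13.42 and 13.48 on all arrays.

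Genes of embryonic and regenerating muscle were read beside Myh3 and Myh8. Of 16 measured, 0 passed in limma, 8 were higher and 1 lower with an unadjusted p under 0.05 (3.97% and 6.6% over all genes), and the median difference was 0.31. Ncam1, a cell adhesion molecule of satellite cells, regenerating and denervated fibres, read 9.02, 8.79, 9.09 and 8.92 on the wild type arrays and 9.71, 9.88 and 10.3 on the knockout arrays, a difference of 1.01 ± 0.14 (limma adjusted p = 0.093). Myl4, the embryonic and atrial essential myosin light chain that partners developmental myosin heavy chains, read 10.45, 10.45, 10.2 and 10.42 against 10.91, 10.85 and 11.38, a difference of 0.67 ± 0.13 (limma adjusted p = 0.15). Knockout arrays lay above all wild type arrays in 8 of the 16 genes, Ncam1 and Myl4 among them, and below in 1, Cdh15, beside 3.31% above and 5.25% below over all genes. The others of the 8 were Sln, Chrna1, Tnnt2, Des, Vim and Myf6. Of these, Des and Vim were bright in wild type muscle, at means of 13.36 and 12.36. In Mymk, Myog, Myod1, Chrng, Actc1, Myf5 and Pax7 the genotypes overlapped. These further genes were named after their values were seen.

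Satellite cells are the stem cells whose descendants make embryonic myosin. Of 6 satellite cell markers, 0 passed, 5 lay above and 1 below wild type, 1 was higher and 1 lower with an unadjusted p under 0.05 (3.97% and 6.6% over all genes), and the median difference was 0.05. Cdh15, M-cadherin, was the lower one at -0.09 ± 0.03, and Vcam1, an adhesion molecule named after its values were seen, the higher one at 0.3 ± 0.11 (limma adjusted p = 0.4 for each). The mean over the 6 markers ran from 8.06 to 8.12 in wild type and from 8.09 to 8.21 in knockout arrays. The part of satellite cells in the values of Myh3 was not tested. Muscle spindle fibres keep developmental myosins in the adult. Of 4 measured spindle genes, 0 passed, 0 had an unadjusted p under 0.05, and the median difference was 0.04, with Etv4 at 0.16 ± 0.09 and Etv1 at -0.06 ± 0.05. Leaving out knockout replicate 1 gave Etv4 0.24 and leaving out replicate 3 gave 0.09, and Etv1 was -0.0066 without knockout replicate 2 and -0.095 under array weights.

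Macrophage markers were read beside the developmental myosins. All 7 were higher in every knockout array than in every wild type array, as were 3.31% of all genes, 2 passed over all genes, and their median difference was 0.6. Lyz2, the macrophage lysozyme, rose by 0.94 ± 0.05 (limma adjusted p = 0.01), and Tyrobp, a signalling adaptor of myeloid cells named after its values were seen, by 0.63 ± 0.04 (limma adjusted p = 0.019). Leaving out wild type replicate 1 or 4 gave Lyz2 an adjusted p of 0.11, leaving out wild type replicate 3 gave 0.066 and leaving out knockout replicate 2 gave 0.054, and in these limma fits 0 genes passed. Without wild type replicate 2, 1 gene passed. The mean over the 7 markers ran from 8.24 to 8.56 in wild type and from 9.03 to 9.12 in knockout arrays. Of 5 fibroblast markers, 4 lay above and 1 below wild type, 2 were higher with an unadjusted p under 0.05 (3.97% over all genes) and 0 passed the test. Their median difference was 0.41, and the first by p was Pdgfra at 0.53 ± 0.11 (limma adjusted p = 0.16), while Col1a1, named after its values were seen, differed by -0.28 ± 0.26. Their mean ran from 10.28 to 10.73 in wild type and from 10.6 to 11.07 in knockout arrays. The part of these cells in the values of Myh3 and Myh8 was not tested.

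**Figure D5:**
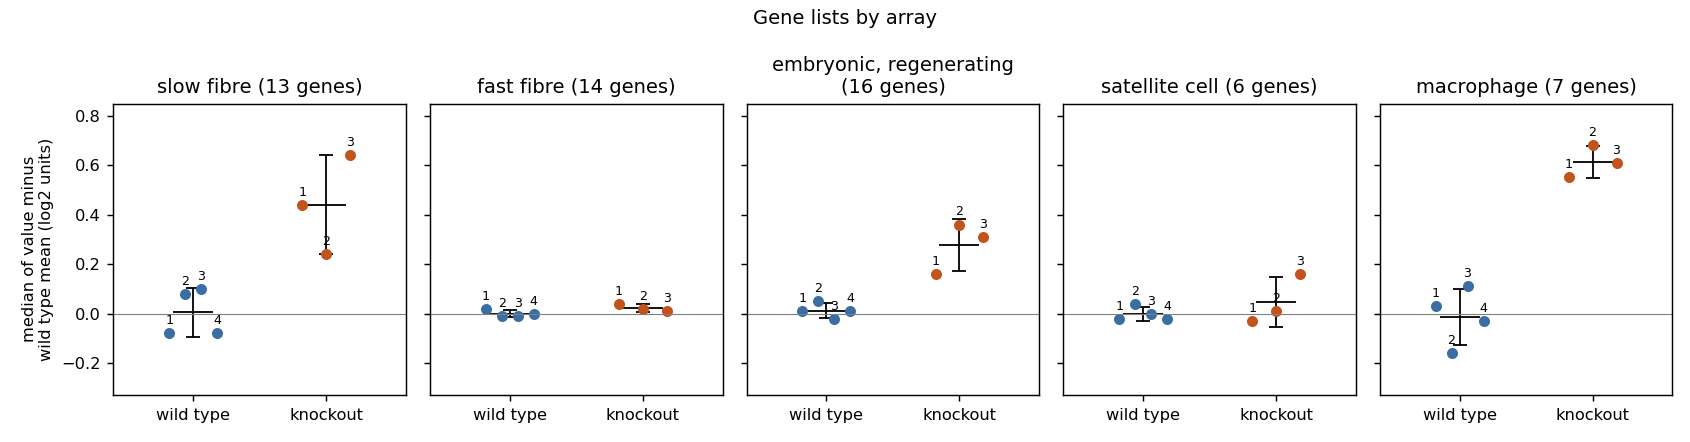
Median over each gene list of the value minus the wild type mean, per array, with wild type in blue, knockout in orange, replicate numbers, and the mean and SD of the arrays. The knockout arrays lie above the wild type arrays for slow fibre (0.24 to 0.64), embryonic and regenerating (0.16 to 0.36) and macrophage genes (0.55 to 0.68), and near 0 for fast fibre genes (0.01 to 0.04).

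Markers of other cell types were read in the same way, where 3.97% of all genes were higher and 6.6% lower with an unadjusted p under 0.05. Endothelial markers were below wild type in 6 of 6 genes, with 0 past the test, 4 lower at an unadjusted p under 0.05, a median of -0.31 and Cdh5, vascular cadherin, at -0.32 ± 0.06. Smooth muscle markers were below in 5 of 5 (0 passed, 3 at an unadjusted p under 0.05, median -0.19), and adipocyte markers in 4 of 4 (0 passed, 2 at an unadjusted p under 0.05, median -0.23, Adipoq -0.34 ± 0.12). Schwann cell markers had a median of -0.04 over 2 genes (Mbp -0.04 ± 0.03), and 0 of them had an unadjusted p under 0.05. Tendon markers had a median of -0.05 over 5, with 0 past the test and 2 lower at an unadjusted p under 0.05 (Mkx -0.23 ± 0.08). Cardiac markers, which bear on Myh6 and Myh7, had a median of 0.03 over 5, with 0 past the test and 1, Myl4, at an unadjusted p under 0.05. Skeletal fibre markers had a median of -0.01 over 6, with 0 at an unadjusted p under 0.05 and Mylpf, the fast regulatory light chain, at 0.14 ± 0.06. Without knockout replicate 2 Mbp differed by -0.019 and Mkx by -0.15, and without wild type replicate 3 Mylpf differed by 0.091.

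Heavy chains outside the studied set use the same motor in other cells. Of 6 measured, namely the non-muscle and smooth muscle forms Myh9, Myh10, Myh11 and Myh14, the extraocular Myh13 and Myh15, 0 passed in limma and 1 was lower at an unadjusted p under 0.05 (6.6% over all genes). That was Myh11, the smooth muscle myosin, which read 9.02, 9.09, 9.08 and 8.88 on the wild type arrays and 8.77, 8.83 and 8.38 on the knockout arrays (-0.36 ± 0.11, limma adjusted p = 0.36). Myh10, which non-muscle cells use, followed at 0.12 ± 0.07. Without knockout replicate 3 the differences were -0.22 for Myh11, which array weights brought to -0.23, and 0.068 for Myh10. The median over the 6 was 0.03.

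Partners of myosin in the thick filament and M-band differed unevenly. Of 9 measured, 0 passed in limma, 2 were higher at an unadjusted p under 0.05 (3.97% over all genes), and the median difference was 0.04. Mybph, myosin binding protein H, read 9.12, 9.81, 8.6 and 8.91 on the wild type arrays and 10.56, 11.22 and 11.3 on the knockout arrays, a difference of 1.91 ± 0.31 (limma adjusted p = 0.096). Myom3, a myomesin of the M-band, read 8.82, 9.37, 8.95 and 8.96 against 9.47, 9.59 and 9.84, a difference of 0.61 ± 0.15 (limma adjusted p = 0.24). In both the genotypes did not overlap. Knockout arrays lay above all wild type arrays in 3 of the 9 genes and below in 1, beside 3.31% and 5.25% of all genes. The 1 below was Mybpc1, named after its values were seen, at -0.08 ± 0.04.

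Of 7 measured genes that fold, modify or degrade myosin, 0 passed in limma, 2 were lower at an unadjusted p under 0.05 (6.6% over all genes), and the median difference was 0.05. The 2 were Trim54 and Trim55, ring finger proteins of the sarcomere (MuRF3 and MuRF2), each at -0.19, with SEs of 0.05 and 0.06 (limma adjusted p = 0.31 and 0.38). Of 34 measured regulators of fibre type, 0 passed in limma, 1 was higher and 4 lower with an unadjusted p under 0.05 (3.97% and 6.6% over all genes), and the median difference was -0.03. Six4, a homeobox factor that with its relatives drives fast muscle genes, read 9.35, 9.37, 9.47 and 9.27 on the wild type arrays and 9.19, 9.05 and 8.99 on the knockout arrays (-0.29 ± 0.06, limma adjusted p = 0.2). Tead4, a transcription factor of the Hippo pathway active in myoblasts, read 8.74, 8.74, 8.79 and 8.47 against 8.88, 9.1 and 9.15 (0.36 ± 0.1, limma adjusted p = 0.28).

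The genes whose values followed a member most closely over the 7 arrays were taken as those of highest Pearson's r, a description of arrays that share genotype and scaling. For Myh3 they were Clec4a3 (r = 0.99), Cd300ld (0.976) and Alcam (0.973). For Myh8 they were Camk2d (0.985), Sfrp1 (0.982) and Gpnmb (0.981), and for Myh7 Zscan2 (0.99), Polr1a (0.987) and Tnnc1 (0.982). Of these last, Tnnc1 spanned 1.0 log2 unit between arrays, while Zscan2 spanned 0.05 and Polr1a 0.13. For Myh2 they were Khnyn (0.973), Slc7a7 (0.971) and Gm13213 (0.963), and for the bright Myh1 and Myh4 none spanned more than 0.44 units: Olfr263, Tkt and 5031425E22Rik (0.981, 0.979 and 0.979), and Amn1, Tent4a and Gsap (0.984, 0.975 and 0.965). For Myh6 they were Cox7a2l (0.991), Dleu2 (0.982) and Rpl27a (0.973), which spanned 0.02, 0.29 and 0.19 units. For Myh7b, with its 3 distinct values, they were Vmn1r32 (0.999), Olfr1195 (0.998) and Ankrd34b (0.994), which spanned 0.06, 0.01 and 0.34 units.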

How the data were processed

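Per the labels' protocols, RNA was extracted with TRIzol and 100 ng per sample were labelled with the Ambion WT Expression Kit. The deposited values of 28856 probe sets on 7 arrays were taken to be log2 expression. Their range was 4.41 to 14.65, above the natural log of a 16-bit maximum (11.09), so the base is an inference. Background correction, scaling and genome build were not given in the sources used here. Platform annotation gave at least 1 gene symbol to 23410 probe sets (21789 with exactly 1, 1621 with several), and these were tested, while 5446 were unnamed. The number of value columns left unused was 0.

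Knockout minus wild type was fitted with limma 3.58.1 (lmFit, eBayes) in R 4.3.3 on all 7 arrays, with no covariate, and p-values were adjusted by Benjamini-Hochberg across the tested probe sets. A gene was called at an adjusted p under 0.05. Values joined by ± are the difference and its moderated SE unless marked SD, except in the within-array pairs. There the SE comes from the pooled spread of the 7 arrays and is not moderated. The scripts were tested on simulated data.

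The members and the 9 muscle and 10 cell type lists (173 entries, 162 measured) were chosen with earlier results of these data known, and lists are described by counts and medians only. The rule named the 8 members, the 2 genes of smallest p in each muscle list, the first of each cell type list, the 3 most similar genes per member, and Prkaa1 and Prkaa2. Results were recomputed with array weights, quantile normalization, each array centred on its median, a block for the replicate number, dim probe sets left out, a trended robust prior, other choices of probe sets and thresholds, a gene's probe sets averaged, and 1 array left out at a time.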

Additional observations from a re-analysis of the deposited data

Results flagged for a closer look

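Among the wild type arrays, 8 of 40 values tested had 1 array far from the other 3. Chance gives about 1 in 20 for independent, normally spread values. Myh7b, Etv1 and Mir208a read the same rounded value on the other 3 arrays, so the 2 rates cannot be compared as an excess. Of the myosin genes the flag touched Myh7b, at 8.28 in wild type replicate 2 and 8.25 in the others, a gap of a few hundredths. Wild type replicate 2 was low for Mylk2 (12.26, nearest 12.6) and for Prkaa2 (12.03, nearest 12.28). Wild type replicate 3 was low for Myl4 (10.2, nearest 10.42) and high for Etv1 (8.04, nearest 8). Wild type replicate 4 was low for Tead4 (8.47, nearest 8.74) and high for Mir208a (5.55, nearest 5.48). Wild type replicate 1 was high for Mir1a-2 (6.07, nearest 5.89). Groups of 3 arrays are too small for this rule, so the spread of Myh7 among knockout arrays was not examined by it.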

How the results depend on the processing

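With 1 array left out, the difference of Myh3 lay between 0.61 and 0.71, and it was 0.68 with the replicate number as a block (replicate block, adjusted p = 0.28). The other scalings, filters, weights and priors kept its call. The count of myosin genes called was 0 under the block, between 0 and 1 with 1 array left out, and 3 at an unadjusted p under 0.05. The count of all genes called was 0 under the block, between 0 and 40 with 1 array left out (40 without knockout replicate 1), 99 at an adjusted p under 0.10 and 2192 at an unadjusted p under 0.05. Same-numbered wild type and knockout arrays had correlations of deviations of 0.29, 0.16 and -0.19. Those of differently numbered arrays ran from -0.26 to 0.2, so 0.29 was the highest of all. These values do not settle whether the numbers pair the mice, and the main fit did not pair them. Under the block, Myh1 differed by 0.046 and Mir208a by -0.03, and Lyz2 by 0.93 with an adjusted p of 0.27. The sign of Myh4 turned to -0.0064 under median centring, and lay between -0.0067 and 0.024 with 1 array left out. That of Myh7b turned to -0.013 under median centring, -0.0024 after quantile normalization and -0.00046 under array weights, and lay between -0.0077 and 0.012 with 1 array left out. At an adjusted p under 0.05, the counts of called genes in the 9 muscle lists were 0 under every setting run on them. In the main limma fit Ncam1 (adjusted p = 0.093) and Mybph (0.096) lay under 0.10. Mir208a and Mir1a-2 were left out by the filter on dim probe sets and have no value there.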
